A study of Mus musculus with 6 samples.

Results

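Large islets, over 200 µm in diameter, were compared between 5-week-old BALB/c mice given the serpin B13 antibody B29 and mice given a control IgG antibody. Each mouse had received 4 intraperitoneal injections of 25 µg of antibody, 100 µg in all, starting at 2 weeks of age, and was killed 2 weeks after the last one. Each antibody was represented by 1 array over 200 µm, out of 6 Illumina mouse bead arrays that also covered islets under 100 µm and of 100 to 200 µm, again with 1 array per antibody. A probe was compared where its detection p-value was under 0.05 on at least 1 of the 2 arrays, which held for 16092 of 45281 probes. Of these, 13792 were detected on both arrays and 2161 had no gene name; the others stood for 10184 genes. Every difference is given as the B29 level minus the IgG level on the log2 scale of the deposited values, so that 1 is 2-fold brighter and -1 is 2-fold dimmer with B29. With 1 array against 1 there is no replicate, no test within the size class and no error on a single difference, so sizes only are given, and a probe is counted as apart at 2-fold or more. The labels do not say how many mice gave islets to an array or whether the size classes came from the same mice.

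Pancreatic islets are clusters of endocrine cells set in exocrine tissue, which is made of acinar cells and of the ducts that drain them. Acinar cells make digestive enzymes, mostly as inactive zymogens, pack them into zymogen granules and secrete them on stimulation. Islets freed from the pancreas can keep some of these cells, and acinar messages are so abundant that they appear readily in islet RNA. Serpin B13 is a protease inhibitor of clade B that acts on cysteine proteases such as cathepsin L, and its own gene, Serpinb13, was detected on none of the 6 arrays.

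Both arrays over 200 µm carried the islet signature. The insulin gene Ins2 stood at 14.20 with either antibody, the highest value on every array after normalization, so that a difference in Ins2 could not show. The glucagon gene Gcg stood at 13.97 with either antibody, near the same ceiling, and the somatostatin gene Sst at 13.37 with IgG and 13.42 with B29. Ins1 had no named probe. Probes detected numbered 15084 with IgG and 14800 with B29, and the dimmest detected probe had a level of 4.52 with IgG and 4.54 with B29, which is the detection floor used here. The spread of the B29 to IgG difference over all probes compared was wider in large islets (SD 0.346) than at 100 to 200 µm (0.271) or under 100 µm (0.305).

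The exocrine genes set the large islets apart. Reg1, a secreted C-type lectin that acinar cells make, was 15.98-fold dimmer with B29, and the elastase gene Cela3b, the colipase gene Clps, the lipase-related gene Pnliprp1 and the carboxypeptidase gene Cpa1 were 14.2-fold, 13.6-fold, 12.2-fold and 11.9-fold dimmer. All 15 genes with the lowest differences belonged to the acinar or Reg lists. Of the 62 genes of the acinar lists, 8 had no named probe, 17 were detected on neither array and 37 were compared. Of these 37, 34 were at least 2-fold dimmer with B29, against 0.835% of all genes compared (85 of 10184), and 0 were at least 2-fold brighter, against 0.216%. Their median difference was -2.98, where the median of all genes compared was 0.02 and the middle 50% ran from -0.19 to 0.22. Whether the B29 array held fewer acinar cells or less acinar RNA per cell cannot be told apart in bulk RNA.

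**Figure D1:**
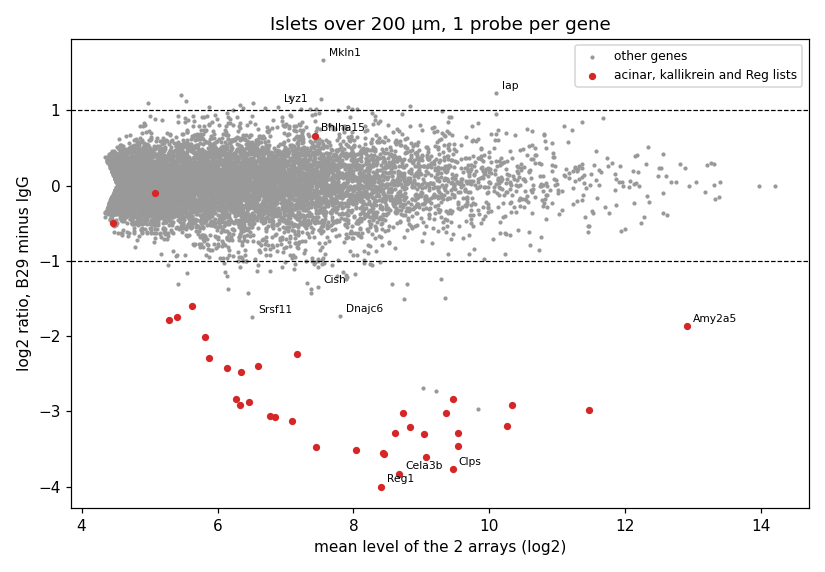
Each point is a gene compared over 200 µm, by 1 probe, with the mean level of the 2 arrays on the x axis (log2) and the difference B29 minus IgG on the y axis (log2). Red points are genes of the acinar, kallikrein and Reg lists, most of which lie between -4.00 and -1.60, below the dashed lines that mark 2-fold.

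The promoters of 3 of these genes are shown because they hold letters that match a known motif of the acinar transcription factor Ptf1a, and because their messages were among the 15 lowest. Ptf1a acts in the PTF1 complex with Rbpjl or Rbpj and binds an E-box, CACCTG, next to a second box, TTTCCC, in the promoters of digestive enzyme genes. The sequences are the 250 bases before the start of the gene in the RefSeq promoter table (build GRCm38.p6), written along the gene's own strand, with each match to either box on either strand in capitals (CACCTG or CAGGTG, and TTTCCC or GGGAAA, which can share an end base).
Cela1, chr15:100687921.0-100688170.0, minus strand: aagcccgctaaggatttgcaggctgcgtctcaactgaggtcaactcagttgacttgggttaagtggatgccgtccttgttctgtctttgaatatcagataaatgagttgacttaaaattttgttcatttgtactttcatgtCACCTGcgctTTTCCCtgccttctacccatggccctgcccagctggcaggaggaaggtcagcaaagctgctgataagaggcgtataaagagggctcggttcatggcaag
Cel, chr2:28563404.0-28563653.0, minus strand: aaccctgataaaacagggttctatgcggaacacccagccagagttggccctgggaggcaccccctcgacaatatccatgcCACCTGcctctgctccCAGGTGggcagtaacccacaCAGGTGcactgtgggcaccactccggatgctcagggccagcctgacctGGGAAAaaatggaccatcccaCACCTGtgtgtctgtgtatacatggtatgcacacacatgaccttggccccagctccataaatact
Cela3b, chr4:137430521.0-137430770.0, minus strand: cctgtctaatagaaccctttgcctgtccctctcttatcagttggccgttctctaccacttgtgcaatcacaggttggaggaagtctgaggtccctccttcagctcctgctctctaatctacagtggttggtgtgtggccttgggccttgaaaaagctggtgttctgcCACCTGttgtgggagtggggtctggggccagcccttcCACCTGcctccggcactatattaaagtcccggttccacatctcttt
In Cela1 a CACCTG begins at base -109 and a TTTCCC at base -99 from the start, side by side. Cel holds 4 E-boxes and 1 TTTCCC, and Cela3b holds 2 E-boxes and no TTTCCC. The others of the 15 lowest genes held fewer matches. Try4 and Cpb1 hold 1 CACCTG and no TTTCCC, and Reg1 and Cpa1 hold 1 TTTCCC and no CACCTG. Pnliprp1, Sycn, Rnase1 and Gp2 hold neither box, and Clps, Ctrc, Zg16 and Try10 had no promoter to search. Of the 35 acinar, kallikrein and Reg genes that were at least 2-fold dimmer, 26 had a promoter in the table. CACCTG was present in 14 of the 26 (53.8%), against 15.5% of the promoters of all genes compared and 17.1% of all 27025 promoters. TTTCCC was present in 8 of the 26 (30.8%), against 22.9% and 21.9%, and both boxes in 4 (15.4%), against 3.36% and 3.63%. The 26 came from the acinar, kallikrein and Reg lists, which were made of exocrine genes whatever their difference. Too few genes of these lists were not dimmer to set beside them, so the shares cannot be tied to the B29 difference. These shares describe the letters of the window and say nothing of whether a factor was bound.

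The protease zymogens formed the largest group, and all 15 that were compared were at least 2-fold dimmer with B29 (median -3.07). Cela3b, a pancreatic elastase, had levels of 13.02 with IgG and 13.56 with B29 under 100 µm, 11.09 and 11.49 at 100 to 200 µm, and 10.59 and 6.76 over 200 µm. It was thus a little brighter with B29 in both smaller classes and far dimmer in the largest (-3.83). Chymotrypsin C (Ctrc), which regulates trypsinogen activation, stood at 9.19 with IgG and 5.71 with B29 over 200 µm (-3.48), and the elastase gene Cela1 at 10.69 and 7.39 (-3.30). The carboxypeptidase genes Cpa1 (10.24 and 6.67, difference -3.57) and Cpb1 (10.44 and 7.24, -3.20) trim the ends of dietary peptides, and both were about as far apart as the endoproteases. The chymotrypsin genes Ctrb1 and Ctrl differed by -3.02 and -3.01 and the elastase gene Cela2a, at 12.96 and 9.98, by -2.98. The trypsin family genes covered a range: Try4 (-3.45), Try10 (-3.19), Prss2 (-3.07), Try5 (-2.84) and Prss3 (-2.23) were all dimmer. Trypsinogen genes lie in a cluster of near-identical copies, so a probe named for one may report several of them. Klk1, the tissue kallikrein, differed by -2.39. For 2210010C04Rik the B29 level lay below detection, so that it was at least 3.33-fold dimmer.

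All 5 lipase genes compared were at least 2-fold dimmer, with a median of -3.55 against -3.07 for the proteases. Clps, the cofactor that anchors lipase to fat droplets in bile, had levels of 13.45 and 13.45 under 100 µm, 11.93 and 12.39 at 100 to 200 µm, and 11.34 and 7.58 over 200 µm, IgG first. Its second probe differed by -2.72 over 200 µm. The lipase-related genes Pnliprp1 (10.88 and 7.27) and Pnliprp2 (7.89 and 5.02) differed by -3.60 and -2.87, and the bile salt-stimulated lipase gene Cel (10.20 and 6.66) by -3.55. Pla2g1b, the secreted phospholipase A2 of pancreatic juice, stood at 8.30 and 5.24 (-3.06). With all named probes in place of 1 per gene the lipase median was -3.06, so that its distance from the protease median rested on the choice of probe.

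The amylase and ribonuclease list was dimmer in 3 of 3 genes compared. Amy2a5, a pancreatic amylase, had a level of 13.84 on all 3 IgG arrays and on the B29 array under 100 µm, 13.97 with B29 at 100 to 200 µm and 11.97 with B29 over 200 µm, a difference of -1.87. A second, dimmer probe of Amy2a5 went from 9.51 to 6.60 (-2.91), and the probe named Amy2 from 11.79 to 8.87 (-2.92). The brighter Amy2a5 probe did not move over the 3 IgG arrays while the second ranged from 12.30 to 9.51. Its levels of 13.84 and 13.97 lie near the ceiling of 14.20 that the normalization gives every array. Equal values there mean equal ranks and do not show equal RNA, and the difference of -1.87 starts near that ceiling. Amylase genes are also near-identical copies and their probes may share targets. The pancreatic ribonuclease gene Rnase1 stood at 11.18 and 7.89 (-3.29). In all, 23 of 23 digestive enzyme genes compared were at least 2-fold dimmer.

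Tissue kallikreins of the Klk1b cluster, serine proteases that are secreted by exocrine glands, were dimmer in all 3 genes detected. Klk1b26 went from 7.78 to 4.87 (-2.91), Klk1b5 from 7.68 to 4.85 (-2.83) and Klk1b27 from 7.35 to 4.93 (-2.42), and all 3 B29 levels lay near the detection floor. Another probe of Klk1b5, detected with IgG only at 4.64, differed by -0.34. These genes too are close copies of each other, and 7 further Klk1b genes were detected on neither array.

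Genes of the zymogen granule and of other acinar secretions spread more widely. Syncollin (Sycn), a granule protein, stood at 9.80 with IgG and 6.28 with B29 (-3.51), the granule lectin gene Zg16 at 10.25 and 6.96 (-3.29) and Gp2, the main glycoprotein of the granule membrane, at 8.66 and 5.53 (-3.13). These 3 differed by as much as the enzymes they are packed with. The trypsin inhibitor gene Spink1 (7.58 and 5.11) differed by -2.47, the trefoil factor gene Tff2 (7.03 and 4.74) by -2.29, the pancreatic disulfide isomerase gene Pdia2 (6.82 and 4.81) by -2.01 and the scavenger receptor gene Dmbt1 (6.43 and 4.83) by -1.60. Cuzd1, which encodes a granule membrane protein, was not detected with B29 and was at least 3.11-fold dimmer. Gnmt, a methyltransferase abundant in acinar cells and liver, was the exception, at 5.12 and 5.02 (-0.10). The acinar receptor gene Cckar, which responds to cholecystokinin, and 5 further genes of this list were detected on neither array.

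Of the 5 acinar transcription factor genes, 2 were compared. The brightest probe of Bhlha15, the regulator of the acinar secretory apparatus also called Mist1, stood at 7.10 with IgG and 7.77 with B29 (0.66), the 1 value of the 37 genes above 0. Its other probes went from 7.17 to 7.02 (-0.15) and from 6.33 to 6.40 (0.07), so they did not share that difference. Rbpjl, the acinar partner of Ptf1a, was detected at 4.71 with IgG and not with B29, at least 1.13-fold dimmer, and was too close to the floor to show a larger one. Ptf1a, Nr5a2 and Gata4 were detected on neither large-islet array. Both probes of Ptf1a were detected under 100 µm, at 6.29 and 7.44 for the brighter one, IgG first.

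**Figure D2:**
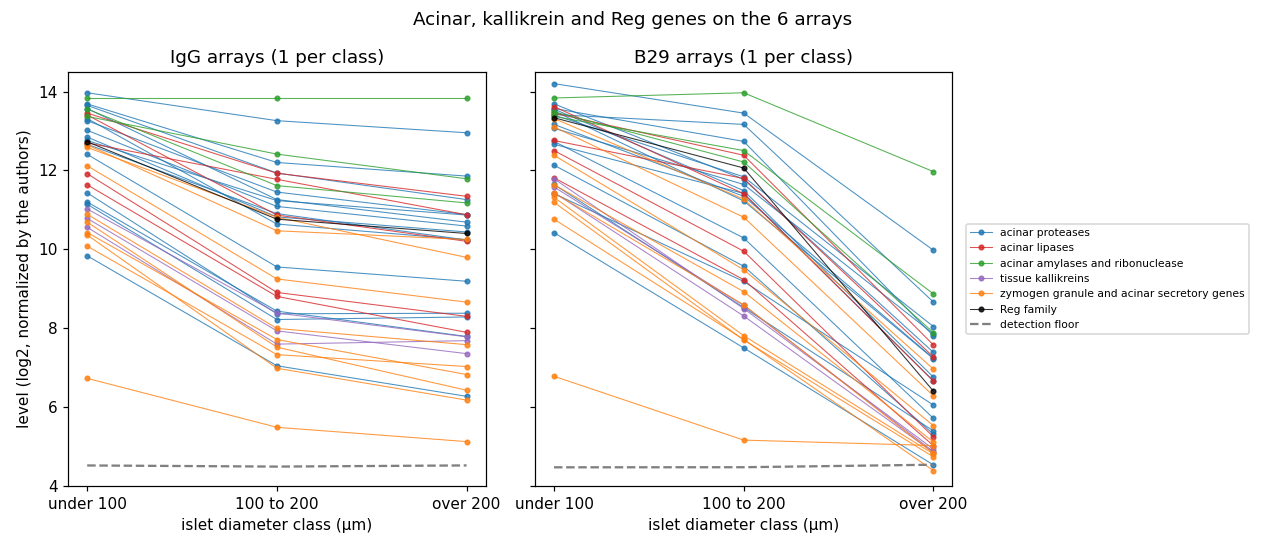
Levels (log2, as normalized by the authors) of the genes of the acinar, kallikrein and Reg lists compared over 200 µm, transcription factors left out, on the 3 IgG arrays (left) and the 3 B29 arrays (right), 1 array per diameter class (µm). Lines join the levels of a gene, and the dashed line is the detection floor. The IgG lines slope down from the smallest class and then nearly level out, with Reg1 at 12.73, 10.76 and 10.40, while the B29 lines drop further over 200 µm, with Reg1 at 13.34, 12.06 and 6.40.

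How far the dim end of the scale shapes these values was examined by probe brightness. Among the 33 exocrine genes that were at least 2-fold dimmer and detected on both arrays, the 7 with an IgG level of 11 or more had a median difference of -3.19, the 13 from 9 to under 11 had -3.48, and the 13 under 9 had -2.47. Normalizing the raw intensities anew with an offset of 16 intensity units, added before taking logs, came within 0.0466 of the authors' log2 values. Such an offset draws dim probes together. With the offset taken off, a calculation added after the data were seen, the 3 medians became -3.25, -3.75 and -3.42. The dimmest group then no longer had the smallest difference, while its B29 levels lay close to the floor.

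Most of the dimmer exocrine probes were brighter with B29 in smaller islets: of 38, 29 were brighter in both smaller classes and 0 were dimmer in both. Of all probes compared, 49.2% lay above 0 under 100 µm and 47.8% at 100 to 200 µm. The share above 0 in both was not counted. The median difference of the 37 acinar genes was 0.32 under 100 µm and 0.46 at 100 to 200 µm, against -2.98 over 200 µm. From the smallest to the largest class, their median level went from 12.41 to 9.55 to 9.19 on the IgG arrays and from 12.66 to 10.29 to 6.28 on the B29 arrays. Their summed intensity over 200 µm was 56984 with IgG and 9011 with B29, against 220386 and 256525 under 100 µm and 74709 and 99006 at 100 to 200 µm. The B29 array over 200 µm thus held the lowest acinar sum of the 6 arrays, and the IgG array over 200 µm the next lowest. Acinar level and islet size moved together with either antibody, and the part of acinar carry-over in the B29 difference was not tested.

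The difference between size classes was tested for each probe in 1 limma fit over all 6 arrays, with size class, B29 and the extra B29 effect over 200 µm as terms. The fit leaves 1 residual degree of freedom per probe and takes the B29 effect as equal in the 2 smaller classes. Its p-values thus rest on the spread of the B29 effect between those classes and not between mice. That spread is mostly the one shared by all probes tested, which limma weights with 14.6 prior degrees of freedom against the probe's own 1. Of 16774 probes tested, 66 (0.393%) had a lower B29 effect over 200 µm at a Benjamini-Hochberg adjusted p under 0.05, and 2 (0.0119%) a higher one. Of the 66, 39 were probes of the acinar, kallikrein and Reg lists, 11 had no gene name and 16 belonged to other named genes. Among the 37 acinar genes, 34 passed. Cela3b differed by -4.30 (SE 0.30, limma adjusted p = 1.89e-06), Clps by -4.00 (SE 0.32, adjusted p = 3.31e-06) and the second probe of Amy2a5 by -3.37 (SE 0.32, adjusted p = 1.41e-05). The brighter Amy2a5 probe, which did not move over the IgG arrays, gave -1.93 (SE 0.30, adjusted p = 0.00332). The 3 that did not pass were Bhlha15 (0.44, adjusted p = 0.873), Rbpjl (-0.76, adjusted p = 0.637) and Gnmt (0.04, adjusted p = 0.993). Without background correction or with an offset of 50, 0 probes passed in limma's test (1235 and 1213 at an unadjusted p under 0.05). The median difference of the 37 genes was then -2.82 and -2.95, against -3.37, and their lowest adjusted p was 0.0564 and 0.0666.

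**Figure D3:**
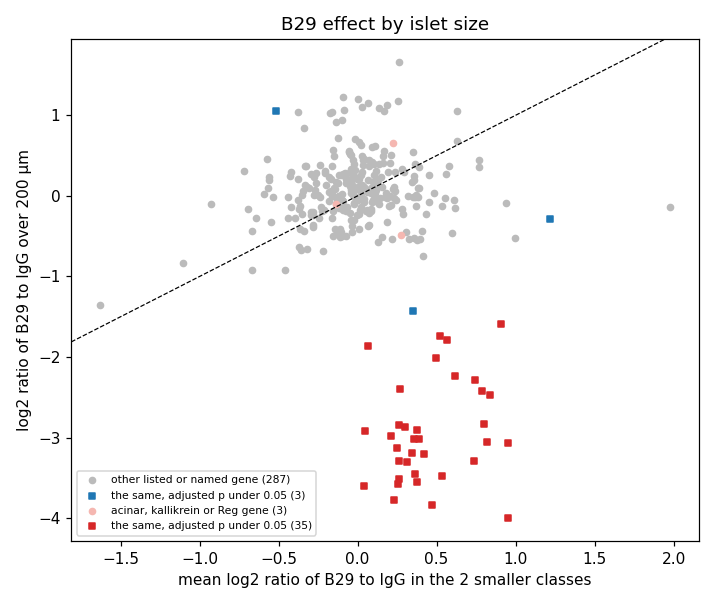
Each of the 328 points is a listed or named gene, with the mean B29 minus IgG difference of the 2 smaller classes on the x axis and that over 200 µm on the y axis (both log2). Squares passed the test of the difference between classes (35 exocrine genes in red, 3 other genes in blue), and the dashed line marks equal differences. The exocrine squares lie below 0 on the y axis and above 0 on the x axis.

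The Reg family showed 2 patterns. Reg1 passed the test between classes (-4.95, SE 0.34, limma adjusted p = 1.89e-06), from differences of 0.61 under 100 µm and 1.30 at 100 to 200 µm to -4.00 over 200 µm. Reg2, in contrast, was detected on neither large-islet array (4.17 with IgG and 4.35 with B29). Under 100 µm it stood at 5.92 with IgG and 9.61 with B29, and at 100 to 200 µm it was detected with B29 alone, at 6.83. Its effect over 200 µm minus that in the smaller classes was -3.00 (SE 0.37, limma adjusted p = 0.000255), with both large-islet values below detection. Reg3a, Reg3b and Reg3d were likewise seen in smaller islets and not in large ones, and Reg3g and Reg4 were detected on none of the 6 arrays.

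Probes that marked small islets were also dimmer. Of 62 probes at least 2-fold brighter under 100 µm than at 100 to 200 µm with both antibodies, 59 were below 0 over 200 µm, 41 were at least 2-fold dimmer with B29 and 0 were at least 2-fold brighter (median -2.26). Over all probes compared, 51.4% lay above 0 over 200 µm and 0.708% were at least 2-fold dimmer. Of the 41, 9 belonged to no exocrine list, and the others were exocrine probes already described above. Among the 9, named here after their values were seen, were Gm5409 (-2.97), which the RefSeq table gives as a pseudogene with the synonym Try10l, and Gm5771 (-2.73) and Gm10334 (-2.69), protein-coding genes near it on the same chromosome. The stress-response gene Nupr1, also among the 9, went from 7.17 to 5.74 over 200 µm (-1.42) and passed the test between classes (-1.78, SE 0.30, adjusted p = 0.00747). In the smallest islets Nupr1 stood at 10.72 with IgG and 11.13 with B29.

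At least 2-fold dimmer with B29 were 114 of the 16092 probes (0.708%). Of these 114, 38 came from the acinar, kallikrein and Reg lists and 9 were the size-marked probes, which left 67. The 67 had a median difference of -1.14. In both smaller classes, 18 of them were below 0 and 23 above, and the like shares of all probes were not counted. Cish, a suppressor of cytokine signalling, was the 1 member of the other lists at least 2-fold dimmer. It went from 8.15 to 6.79 over 200 µm (-1.35), after -1.44 under 100 µm and -1.82 at 100 to 200 µm, and its effect over 200 µm differed from that in the smaller classes by 0.28 (SE 0.31, adjusted p = 0.943). Socs2, of the same family, stood at 7.80 and 7.29 (-0.51) and Socs3 at 7.81 and 7.76 (-0.05).

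Genes outside the exocrine lists were seldom apart by a second probe. A gene counted here where any of its probes was at least 2-fold apart, not only the probe used for its value. Its next probe is the second farthest in that direction, so it differs less in that direction by definition. Of all genes compared, by 1 probe each, 3.69% were at least 1.5-fold dimmer and 3.25% at least 1.5-fold brighter. Outside the exocrine lists, 28 dimmer genes had more than 1 probe compared. Of these 28, 0 had a next probe at least 1.5-fold dimmer, and the next probes had a median of -0.17. The lowest of these named genes, chosen here after their values were seen, were the splicing factor gene Srsf11 (-1.75, next probe -0.17), the auxilin gene Dnajc6 (-1.74, next probe -0.29) and Etfa, a flavoprotein of fatty acid oxidation (-1.51, next probe -0.52). Of 13 brighter genes with more than 1 probe, 1 had a next probe at least 1.5-fold brighter, the transcription factor gene Klf7 (1.19, next probe 0.61). Among 5 exocrine genes with more than 1 probe, 3 had a next probe dimmer by that much (Clps, Amy2a5 and Pnliprp2), and the next probes of Klk1b5 (-0.34) and Cpb1 (0.16) were each below detection on 1 of the 2 arrays. Probes of a gene can target different transcripts, which was not tested.

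**Figure D4:**
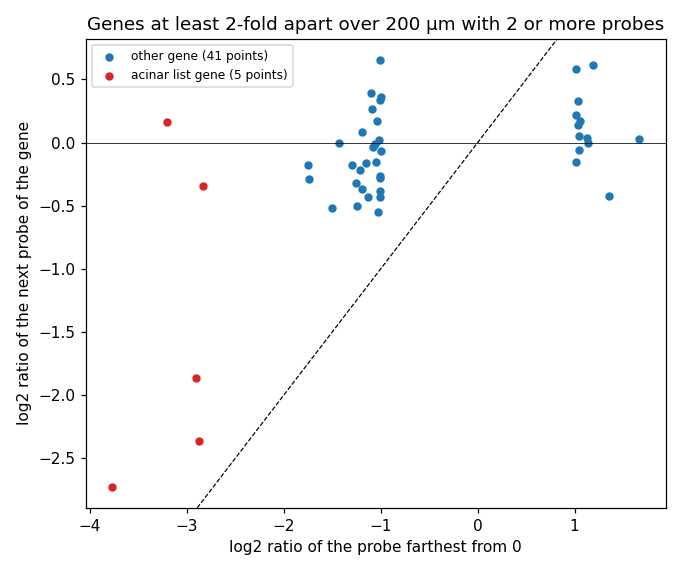
Genes with any probe at least 2-fold apart over 200 µm and 2 or more probes compared. The x axis is the difference of the probe farthest in that direction. The y axis is that of the next probe (both log2, B29 minus IgG). Of the 41 blue points (genes outside the exocrine lists), most lie near 0 on the y axis, while the red exocrine points include Clps (-2.72), Pnliprp2 (-2.36) and Amy2a5 (-1.87).

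The brightest genes with B29 were few and by smaller factors. At least 2-fold brighter were 31 probes (0.193%) and 22 genes, and 5294 of the 10184 genes (52%) lay above 0. Mkln1, which encodes the intracellular protein muskelin, had the highest difference, from 6.71 to 8.38 (1.67), but its second probe stood at 4.89 and 4.92. The transcript named Iap on the array went from 9.48 to 10.71 (1.23), the mitochondrial transcription elongation factor gene Tefm from 4.86 to 6.06 (1.20), the thrombin receptor gene F2r from 6.47 to 7.65 (1.18) and the cholesteryl ester hydrolase gene Nceh1 from 6.95 to 8.10 (1.15). Next came the synuclein gene Sncg (1.13), the chaperone gene Dnajc16 (1.10), Nxph1 (not detected with IgG, at least 1.998-fold brighter), Rabl2 (1.07) and Sar1b (1.06), followed by the sterol oxidase gene Msmo1 (1.05), the lysozyme gene Lyz1 (1.05), the pseudouridine synthase gene Trub2 (1.05), Ppp4r3a (1.04) and the glycosyltransferase gene Alg1 (1.03). Sar1b, a GTPase that forms the vesicles leaving the endoplasmic reticulum, was the 1 of these 15 that passed the test between classes (1.57, SE 0.30, limma adjusted p = 0.0250). It stood at 8.93 and 8.34 under 100 µm, 9.05 and 8.61 at 100 to 200 µm and 8.31 and 9.36 over 200 µm, IgG first, and its second probe differed by 0.17 over 200 µm. Mkln1 (1.40, adjusted p = 0.0939) and Trub2 (1.42, adjusted p = 0.0603) came next and did not pass.

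Among beta cell genes none was 2-fold apart. Of 19 beta cell genes compared, 8 lay above 0 and 10 below, with a median of -0.01; for Ins2, at the top of the scale, the 0 is fixed by the normalization. The transcription factor gene Pdx1 stood at 7.999 with IgG and 8.67 with B29 (0.67) and Nkx6-1 at 8.94 and 9.47 (0.53), while Mafa, near the floor at 4.99 and not detected with B29, was at least 1.37-fold dimmer. G6pc2, a glucose-6-phosphatase of beta cells, went from 12.49 to 12.07 (-0.41) and the peptide gene Ucn3 from 10.65 to 10.37 (-0.28). The alpha cell list (4 genes) had a median of 0.03 and the delta and PP cell list (5 genes) of 0.19, with Ppy, the pancreatic polypeptide gene, at -0.10.

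Secretory granule genes had a median of 0.08 over 12 genes. Chgb, the granin chromogranin B, was the farthest above 0, from 10.94 to 11.78 (0.85), followed by Pcsk1n, an inhibitor of prohormone convertase (0.57). Scg2 (-0.49) and the convertase gene Pcsk2 (-0.46) lay below 0, so the granins did not share a direction. Exocytosis genes (8 compared) had a median of 0.24, with the vesicle fusion gene Vamp2 at 0.72 and Rab27a at -0.03. The test between classes called no gene of these lists, and Chgb had 1.19 (SE 0.30, adjusted p = 0.177).

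**Figure D5:**
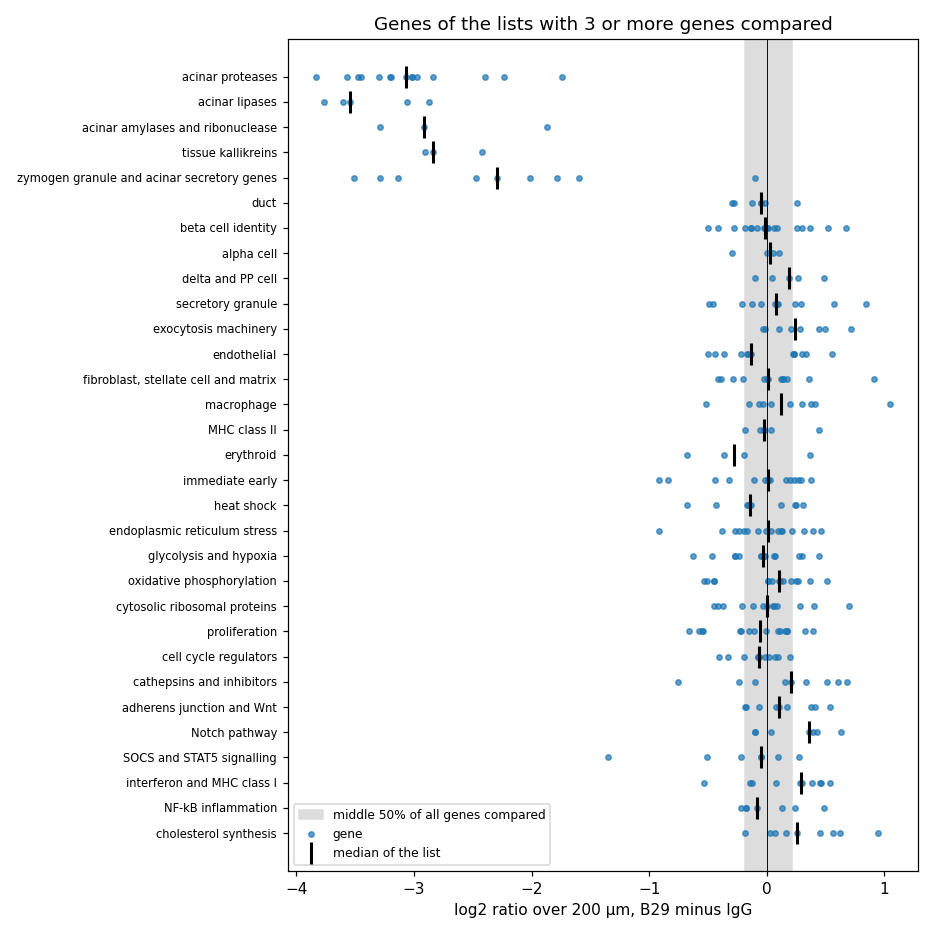
Differences over 200 µm (log2, B29 minus IgG) of the genes of each list with 3 or more genes compared. Each point is a gene, the black mark is the median of the list, and the grey band is the middle 50% of all genes compared, from -0.19 to 0.22. The acinar and kallikrein lists lie far to the left, from -3.83 upwards, and the medians of the other lists run from -0.28 to 0.36.

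Markers of other cells in and around islets were as follows. Of all genes compared, 52% lay above 0. Of 7 duct genes compared, 6 lay below 0 and 1 above, with a median of -0.05. The keratin gene Krt7 (7.94 and 7.89) and the ductal transcription factor gene Sox9 (6.76 and 7.02) were at like levels with both antibodies. The summed duct intensity was 1328 with IgG and 1207 with B29, so the duct and acinar lists did not move by a like amount. Endothelial genes (13 compared) had a median of -0.14, from Emcn (-0.50) to Egfl7 (0.55). Fibroblast and matrix genes (13 compared) had a median of 0.01, with the basement membrane collagen gene Col4a1 the highest, from 8.94 to 9.86 (0.92). The smooth muscle actin gene Acta2 stood at 7.36 and 7.08 (-0.28) in large islets after 1.40 and 1.04 in the smaller classes, and its effect differed between them (-1.50, SE 0.31, adjusted p = 0.0483). The 3 other probes of Acta2 differed by 0.11, -0.20 and -0.31 in large islets. Of 4 erythroid genes, 3 lay below 0, with the haemoglobin gene Hbb-b1 at -0.68, and Hbb-b2 lay above, at 0.37 (median -0.28).

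Of the immune markers in large islets, Lyz1 alone was 2-fold apart. The macrophage list had a median of 0.12 over 10 genes, with the lysozyme gene Lyz1 at 6.37 and 7.42 (1.05), the related gene Lyz2 at 4.82 and 4.67 (-0.15) and the complement gene C1qb at 5.75 and 5.23 (-0.52). The 6 MHC class II genes had a median of -0.02, with H2-Ea (0.44) the highest and the invariant chain gene Cd74 at 7.74 and 7.77. The immunoglobulin probe Igk-C stood at 4.77 and 4.63 over 200 µm, against 4.95 and 9.28 at 100 to 200 µm, where the B29 array alone was bright. None of the 6 T cell genes with a named probe was detected on either large-islet array. The interferon and MHC class I list had a median of 0.29 (7 of 10 above 0, against 52% of all genes), which was 0.06 with all named probes and 0.13 without background correction, with the restriction factor gene Ifitm3 at 0.54 and the immunoproteasome gene Psmb8 at -0.54.

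Genes close to the target of the antibody were compared next. Cathepsin L (Ctsl), a protease that serpin B13 inhibits, stood near the floor at 4.83 and 4.73 (-0.10). Of the 9 cathepsins and inhibitors compared, 6 lay above 0, against 52% of all genes. Their median was 0.21, and 0.11 with all named probes. The asparaginyl protease gene Lgmn differed by 0.68 and the inhibitor gene Cstb by 0.61, and Ctsk lay farthest below, from 5.44 to 4.68 (-0.75). Ctsk was brighter in the smallest islets, at 7.16 and 7.39. E-cadherin (Cdh1), at 8.23 and 8.31, and beta-catenin (Ctnnb1), at 9.15 and 8.97, differed by 0.08 and -0.18. In the Notch pathway, which holds back endocrine differentiation in the embryonic pancreas, 5 of 7 genes compared lay above 0, against 52% of all genes, with a median of 0.36. That median was 0.04 with all named probes, as further probes of Hes6 differed by -0.65 and -0.05, and 0.16 without background correction. The target gene Hes1 stood at 5.45 and 6.08 (0.63), the receptor gene Notch1 at 4.94 and 5.36 (0.43), the feedback inhibitor gene Nrarp at 5.19 and 5.58 (0.39) and Neurog3, the factor of endocrine progenitors, at 6.00 and 6.36 (0.36). No gene of the cathepsin, junction or Notch lists was 2-fold apart or passed the test between classes, and the ligand genes Jag1, Jag2, Dll1 and Dll4 were not detected.

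Metabolic and stress genes stayed within 2-fold in the lists that were compared. Cholesterol synthesis genes lay above 0 in 8 of 9 cases, with a median of 0.26, against 52% of all genes, and the median was 0.16 with all named probes. Lanosterol synthase (Lss) went from 5.49 to 6.43 (0.94), Cyp51 from 5.90 to 6.46 (0.56) and Mvd from 5.06 to 5.51 (0.45), while Sqle (0.07) and Insig1 (0.03) were close to equal. Msmo1 (1.05), named above, acts in the same pathway and was not in the list. Immediate early genes had a median of 0.01 over 15 genes, with the activity-regulated factor genes Csrnp1 (-0.92) and Npas4 (-0.84) the lowest and Zfp36 (0.38) the highest. Heat shock genes had a median of -0.14 and endoplasmic reticulum stress genes of 0.01, the lowest being the pro-apoptotic factor gene Ddit3 (8.51 and 7.59, -0.92). Proliferation genes had a median of -0.06 over 16 genes, from Tyms (-0.66) to Mcm2 (0.39), with Mki67, the marker of cycling cells, at 5.38 and 5.55 (0.17). Oxidative phosphorylation (0.11), glycolysis (-0.03) and ribosomal protein genes (0.00) had medians inside the middle 50% of all genes.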

How the data were processed

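Total RNA of mouse islets was labelled with biotin and hybridised to Illumina bead arrays, per the labels' protocols. The deposited raw table holds, for each probe and array, an intensity with its detection p-value, and the authors deposited log2 values, made with limma 3.34.9 per the submitters' processing notes. No source states their background correction or quantile normalization, both of which are apparent in the values. All differences were taken from the authors' log2 values, and the raw intensities were normalized again (limma 3.58.1 in R 4.3.3, neqc) for comparison. Left out were 22 raw rows in which a word stood where a signal belongs. Symbols came from the platform's probe table and a RefSeq table (GRCm38.p6): 35784 probes had 1 symbol (28620 by Entrez gene, 2637 by transcript, 4527 by the platform symbol) and 9497 none. A gene's value is that of its probe with the highest mean over the 2 arrays. For a bound ("at least"), the detection floor of the array, its lowest detected level, replaced an undetected value.

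The test between classes used limma's lmFit and eBayes on probes detected on at least 2 of 6 arrays (14.6 prior degrees of freedom), with Benjamini-Hochberg adjustment at 0.05. On simulated data for this test with 16774 probes it recovered 8%, 36%, 100% and 100% of 1.5-fold, 2-fold, 4-fold and 8-fold changes, with 7.58% of calls false. The simulated noise was drawn independently for each probe from the fit's own spread, and the changed probes were picked at random. No shift shared by many probes and no spread between mice was simulated, so these rates do not carry over to the real calls. The number of arrays limits the precision.

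The 39 gene lists, the rule for genes named (the 15 highest and 15 lowest genes, genes of the study's subject, the acinar lists in full and at most 8 members of any other list, from its highest and lowest) and the comparison itself were chosen with earlier results of these data known. Alternatives were other scalings, background corrections, filters, fold thresholds and probe choices.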

Additional observations from a re-analysis of the deposited data

Results flagged for a closer look

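The B29 effect in large islets differed from that in the smaller classes for 54 named genes, by the limma test of the difference itself (adjusted p under 0.05), and 52 of these had a lower effect over 200 µm. The probe counted is that used for the gene in the acinar and Reg lists and the probe that passed for any other gene. The 54 is thus neither a count at 1 probe per gene nor a share of the genes tested. The values are differences of log2 differences, large islets minus the mean of the 2 smaller classes. The protease genes were Cela3b (-4.30), Prss2 (-4.02), Ctrc (-4.01), Cpa1 (-3.83), Try4 (-3.82), Cpb1 (-3.62), Cela1 (-3.62), Try10 (-3.54), Ctrb1 (-3.40), Ctrl (-3.37), Cela2a (-3.19), Try5 (-3.11), Prss3 (-2.85), Klk1 (-2.66) and 2210010C04Rik (-2.26). The lipase and cofactor genes were Clps (-4.00), Cel (-3.92), Pla2g1b (-3.87), Pnliprp1 (-3.64) and Pnliprp2 (-3.17). The ribonuclease and amylase genes were Rnase1 (-3.55), Amy2 (-2.96) and Amy2a5 (-1.93), and the kallikrein genes of the Klk1b cluster Klk1b5 (-3.63), Klk1b26 (-3.29) and Klk1b27 (-3.21). The granule and secretory genes were Zg16 (-4.02), Sycn (-3.77), Gp2 (-3.38), Spink1 (-3.31), Tff2 (-3.03), Pdia2 (-2.51), Dmbt1 (-2.50) and Cuzd1 (-2.35). The Reg genes were Reg1 (-4.95) and Reg2 (-3.00), and Reg2 was below detection on both large-islet arrays. Outside these lists the lower ones were Gm5409 (-3.81), Gm10334 (-3.36), Gm5771 (-3.25), Dusp11 (-1.94), Dnajc6 (-1.85), Srsf11 (-1.83), Etfa (-1.82), Nupr1 (-1.78), Smc1a (-1.67), Idh1 (-1.65), Zxdc (-1.64), Arrdc4 (-1.63), Pex11a (-1.60), Tctex1d2 (-1.55), Acta2 (-1.50) and Nudt5 (-1.48). The higher ones were Klf7 (1.85) and Sar1b (1.57), whose second probe differed by 0.17 within large islets against 1.06. The next probe of Klf7 differed by 0.61 there. The next probe is the second farthest in the same direction, so it differs less in that direction by definition. It is given for the lower ones at least 2-fold dimmer that had more than 1 probe compared. Its differences were 0.17 for Dusp11, 0.08 for Nudt5, -0.06 for Pex11a, -0.17 for Srsf11, -0.28 for Smc1a, -0.29 for Dnajc6 and -0.52 for Etfa. The genes outside these lists, other than Acta2 and Sar1b, are printed here after their values were seen. No call was made without background correction or with an offset of 50. Acinar levels were also lower in larger islets on the IgG arrays, and the part of acinar carry-over in these differences was not tested.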

How the results depend on the processing

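The counts over 200 µm moved with the background correction and the fold threshold. Without background correction there were 4 probes at least 2-fold brighter and 53 dimmer, and with an offset of 50, 4 and 66, against 31 and 114. At 1.5-fold the counts were 447 and 535, and at 3-fold 1 and 48. Without probes 2-fold brighter under 100 than at 100 to 200 µm with IgG, 69 were dimmer. The acinar median of -2.98 was -2.15 without background correction, -2.44 with an offset of 50 and -3.40 with the offset removed, an alternative chosen after seeing the data. In the test between classes, cyclic loess gave 12 higher and 108 lower probes against 2 and 66, no background correction and an offset of 50 gave 0 and 0, 1 probe per gene gave 1 higher, and leaving out the acinar, kallikrein and Reg lists gave 0 higher and 18 lower. The cause of each was not tested, beyond fewer probes being tested where some were left out. Of 280 values of list medians under an alternative 266 moved by less than the SD of all differences (0.346). The same held for 232 of 268 values of named genes, and none of those at least 2-fold apart changed sign. That SD is one of single probes and is larger than most list medians outside the acinar lists. With all named probes the Notch median went from 0.36 to 0.04 and the interferon median from 0.29 to 0.06, and both are among the 266. The 266 thus do not show that medians near 0 are stable. Scaling by cyclic loess put Ins2 at 0.45 and Gcg at 0.37, against 0.00 for both. The endothelial median went from -0.14 to 0.22 over the 11 genes detected on both arrays. No paired analysis was possible because each group holds 1 array, so there is no replicate number to pair or leave out; the test between classes does compare B29 with IgG within each class. Dim probes limit what can be seen: levels near 4.5 have no reliable order.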
